A study of Mus musculus with 6 samples.

Results

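This report describes 9 genes, the receptors for the colony-stimulating factors, for interleukin 3 and for the growth factors of early progenitors, together with the ligand gene Csf1, in bone marrow myeloid cultures from mice with and without a myeloid deletion of PD-L1. The genes were taken by symbol (Csf1r, Csf2ra, Csf2rb, Csf2rb2, Csf3r, Il3ra, Flt3, Kit and Csf1), and all 9 were found among the 17382 genes of the deposited table. The series holds 6 libraries. The 3 labelled as conditional knockout (CKO1 to CKO3) came from mice of genotype PD-L1 flox/flox carrying lysozyme-Cre, and the 3 labelled wild type (WT1 to WT3) came from PD-L1 flox/flox mice, described as littermates, without it. All mice were C57BL/6 aged 2 months, and both groups carry the floxed alleles. Marrow passed through a 40 µm strainer was grown for 3 days with 40 ng/mL mouse M-CSF and 10% serum, and total RNA was sequenced. Lysozyme-Cre acts in cells that express the lysozyme gene Lyz2, so deletion in such a culture can be incomplete. The design text calls the samples biological triplicates; p-values measure the spread between these libraries.

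M-CSF, encoded by Csf1, binds the receptor tyrosine kinase encoded by Csf1r and supports survival, proliferation and maturation of monocytes, macrophages and osteoclast precursors. GM-CSF and interleukin 3 act through receptors that pair a ligand-specific alpha chain (Csf2ra or Il3ra) with a beta chain that carries signalling through JAK2 and STAT5. The mouse has a pair of beta chain genes, Csf2rb, shared by GM-CSF, interleukin 3 and interleukin 5, and Csf2rb2, which serves interleukin 3 alone. Csf3r encodes the receptor of G-CSF and is known from the neutrophil lineage. Kit and Flt3 encode receptor tyrosine kinases, for stem cell factor and FLT3 ligand, that mark stem cells and early progenitors; Kit is also kept by mast cells and Flt3 by dendritic cells.

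The beta chain genes lie side by side on chromosome 15 of mm10 and are close copies, which bears on how far their values can be separated. The files place Csf2rb2 at 78282508 to 78305721 on the minus strand and Csf2rb at 78325990 to 78351001 on the plus strand. Between the longest annotated coding sequences (GENCODE M21, of the same build), 2503 of 2628 aligned bases, or 95.2%, were identical. Of 75-base windows along the Csf2rb transcript, 10.7% occurred without any difference in Csf2rb2 transcripts, and 11.1% of windows of Csf2rb2 occurred in Csf2rb. Reads that lie wholly in such windows cannot be assigned to either gene by sequence; the sources used here state neither read length nor counting options. A pair of coding stretches, read from GENCODE transcripts in the sense direction, shows both ends of that range. The first is identical in the copies, at chr15:78341391-78341465 (plus strand) for Csf2rb and chr15:78291844-78291918 (minus strand) for Csf2rb2.
Csf2rb, identical stretch: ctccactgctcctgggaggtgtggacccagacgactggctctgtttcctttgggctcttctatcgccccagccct
Csf2rb2, identical stretch: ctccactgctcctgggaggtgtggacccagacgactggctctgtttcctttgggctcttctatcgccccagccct
The second, at chr15:78338905-78338979 for Csf2rb and chr15:78294352-78294426 for Csf2rb2, is the 75-base window with the most differences, and capitals mark the 14 bases that differ.
Csf2rb, divergent stretch: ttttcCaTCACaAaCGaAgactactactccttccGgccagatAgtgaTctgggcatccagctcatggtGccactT
Csf2rb2, divergent stretch: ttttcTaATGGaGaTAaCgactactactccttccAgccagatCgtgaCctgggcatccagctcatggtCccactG
The median ungapped window held 2 differences, and 18.3% of them held none.

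Promoter windows, the 250 bases before each gene's start, came from RefSeq (GRCm38.p6) for 7 of the 9 genes; Csf1r and Csf2rb had no entry. The windows were searched on both strands for GAGGAA (the core of sites bound by PU.1, the myeloid transcription factor encoded by Spi1), TTGCNNAA (C/EBP), TGTGGT (RUNX), TGANTCA (AP-1), TTCNNNGAA (STAT) and TATAAA (the TATA box). The PU.1 core GAGGAA was found in the windows of Csf2ra, Csf3r, Csf2rb2 and Kit and in 23.3% of all 32851 windows of this length. TTGCNNAA was found in that of Il3ra and in 9.56% of all windows, and TTCNNNGAA in that of Csf2rb2 and in 7.02%. In the windows of Csf1 and Flt3 none of the 6 motifs was found, which says only that these letters are not there. The windows of the GM-CSF receptor alpha chain and of the interleukin 3 beta chain are shown because they hold more than 1 match; capitals mark the matches, which do not overlap each other, and both genes lie on the minus strand. In Csf2ra, at chr19:61228419-61228668, GAGGAA occurs at 14 and again at 8 bases before the start. In Csf2rb2, at chr15:78305722-78305971, GAGGAA on the opposite strand begins 167 bases and TTCNNNGAA 15 bases before it.
Csf2ra: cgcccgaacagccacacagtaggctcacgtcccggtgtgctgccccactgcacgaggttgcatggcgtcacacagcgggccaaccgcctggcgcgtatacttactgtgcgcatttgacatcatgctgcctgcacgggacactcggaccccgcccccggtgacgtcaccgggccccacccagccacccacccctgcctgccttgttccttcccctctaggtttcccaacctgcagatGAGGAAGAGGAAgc
Csf2rb2: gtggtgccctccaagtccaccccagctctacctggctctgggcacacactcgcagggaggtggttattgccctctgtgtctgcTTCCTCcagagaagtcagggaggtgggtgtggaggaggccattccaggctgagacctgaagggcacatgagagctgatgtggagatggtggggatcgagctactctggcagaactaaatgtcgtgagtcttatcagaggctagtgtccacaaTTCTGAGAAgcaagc
The matches are a description of the letters. Spi1 had 349, 298 and 311 TPM in CKO cultures, against 343, 305 and 314 TPM in WT cultures, a log2 difference of -0.0071 ± 0.093 (SE).

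Levels are TPM values, which correct reads for the length of the gene and for depth, so that different genes can be set side by side. Whole reads recovered from them summed to 52355015 to 77317206 per library. Cd274, the PD-L1 gene, had 19.3, 19.2 and 29.2 TPM in CKO cultures, against 17.9, 15.5 and 23.7 TPM in WT cultures. It was not lower in CKO cultures (log2 difference 0.24 ± 0.22, SE); a value for the whole gene does not show whether the floxed part was lost, so the genotypes are taken as labelled. Lyz2, the gene whose locus drives this Cre, had 19101, 19354 and 13232 TPM in CKO cultures, against 26707, 27493 and 40358 TPM in WT cultures, without overlap. The first principal component of all tested genes other than the 9 held 44.3% of the variance and did not follow the labels. Its scores were -23.0, -17.4 and 31.7 for CKO1, CKO2 and CKO3, against 19.8, 19.1 and -30.1 for WT1, WT2 and WT3, so CKO3 stood with 2 WT libraries and WT3 with 2 CKO libraries. Macrophage markers were abundant in all libraries, with Cd68 at 2129 ± 206 TPM and the integrin gene Itgam at 528 ± 19 TPM in CKO cultures, against 2263 ± 253 and 509 ± 15 TPM in WT cultures (SD, n = 3 each). The 14 macrophage and monocyte genes summed to 21536 to 29051 TPM in CKO cultures, against 35920 to 50032 TPM in WT cultures, led by Lyz2 and Tyrobp. Without Lyz2 they summed to 9356, 9697 and 8304 TPM in CKO cultures, against 9557, 8428 and 9674 TPM in WT cultures, which overlap, and 8 of the 14 differed positively and 6 negatively. B lineage genes, led by Cd79b and Cd79a, summed to 60.7 to 102 TPM in CKO cultures and 95.7 to 125 TPM in WT cultures, and erythroid and megakaryocyte genes, led by Pf4 and Ppbp, to 858 to 1181 TPM in CKO cultures and 1037 to 1149 TPM in WT cultures. All 10 B lineage genes differed negatively (median log2 difference -0.56), as did 6716 of all 13722 tested genes. Of the 10, 3 had an unadjusted p under 0.05 (limma), beside 2.18% of all tested genes. Negative differences were also found for 11 of 12 erythroid and megakaryocyte genes (median -0.34). Among the latter, Hba-a1 and Hba-a2 have the same coordinates and reads, so the same measurement enters the count and the sums repeatedly. Genes of a lineage can vary together, so these counts are not of independent genes. Without Pf4 the erythroid and megakaryocyte genes summed to 144 to 176 TPM in CKO cultures, against 179 to 257 TPM in WT cultures.

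In the files, on mm10, Csf2ra lies on chromosome 19 (61224402 to 61228418), Csf3r on chromosome 4 (126024659 to 126044975), Il3ra on chromosome 14 (14346495 to 14355490), Csf1 on chromosome 3 (107741048 to 107760469), Csf1r on chromosome 18, and Kit (75574987 to 75656721) and Flt3 (147330742 to 147400489) on chromosome 5. The 9 genes stood in the same order of level in each of the 6 libraries: Csf1r, Csf2ra, Csf2rb, Csf3r, Csf2rb2, Il3ra, Csf1, Kit and Flt3. Csf1r averaged 11.5 times the level of Csf2ra, the next gene, in CKO cultures and 12.5 times in wild type, and ranked 85th of the 17382 genes by mean TPM. At the other end Flt3 averaged 1.46 ± 0.11 TPM in CKO cultures and 1.57 ± 0.41 TPM in WT cultures (SD, n = 3 each), and the mean of Csf1r was 824 times as high in CKO cultures and 766 times in WT cultures. Over libraries of a group, neighbours in the order overlapped for Csf2rb with Csf3r, Csf3r with Csf2rb2 and Csf2rb2 with Il3ra, in both groups; the other 5 steps did not overlap in either. Csf2rb, by contrast, did not overlap Csf2rb2 or Il3ra in either group. All 9 genes reached 0.1 TPM in all 6 libraries, so none entered the test through 1 group alone, and the fewest reads behind any value were the 119 of Flt3 in CKO3.

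**Figure D1:**
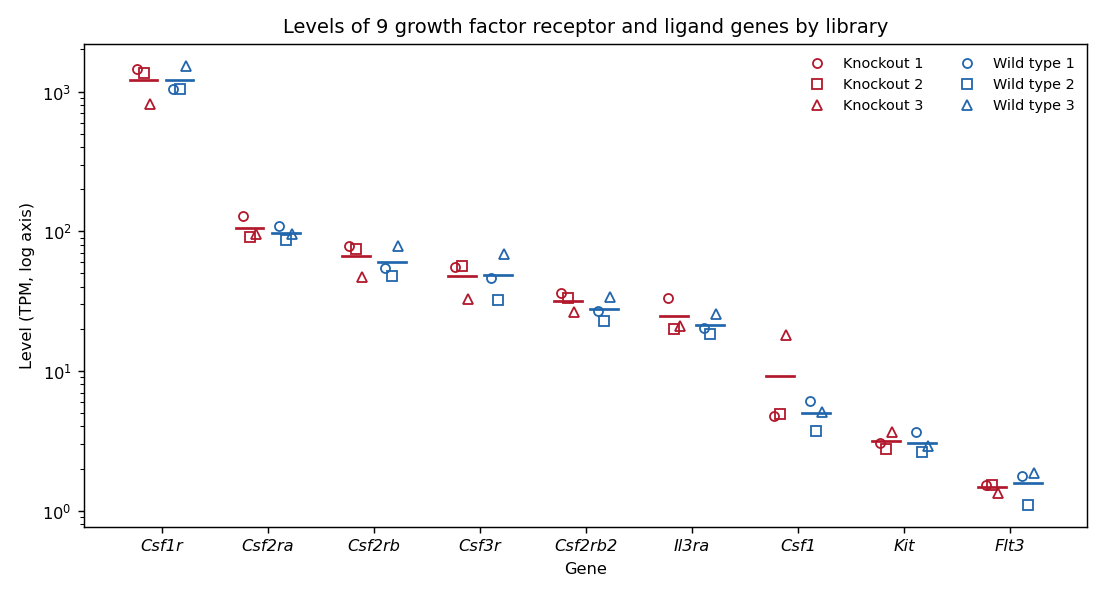
Level of each gene (TPM, log axis) in every library, with knockout libraries in red to the left of wild-type libraries in blue and a line at each group's mean. Csf1r lies above all others at 815 to 1525 TPM, Flt3 lies lowest at 1.10 to 1.86 TPM, and the groups overlap for every gene.

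None of the 9 genes passed the test of genotype. The test was limma on log2(TPM + 0.1) over 13722 genes, two-sided, with Benjamini-Hochberg adjusted p under 0.05 as the threshold; it called 0 of all tested genes (0%), and its smallest adjusted p was 0.341. At an unadjusted p under 0.05 it named 0 of the 9 genes and 299 of all tested genes (2.18%). The groups overlapped for all 9 genes, whereas they did not overlap for 702 tested genes (5.12%), 390 higher in CKO cultures (2.84%) and 312 lower (2.27%). Log2 differences of the 9 genes ranged from -0.067 (Flt3) to 0.61 (Csf1), with 7 positive and 2 negative and a median of 0.11, beside a median of 0.0026 over all tested genes. limma-voom on the recovered reads called 0 of the 9 and 0 of all tested genes, with 312 of all at an unadjusted p under 0.05. The 9 were also without a call in the authors' deposited table, which calls 46 of its 17382 genes (0.265%). Without CKO3 and WT3 together, a removal chosen once their component scores were known, 3 of the 9 rose (Csf1r, Csf2rb and Csf2rb2, by 0.42, 0.58 and 0.49 on the log2 scale, limma adjusted p = 0.0416, 0.0289 and 0.0470) where 1400 of all tested genes were called (10.2%); genotype label and side of that component then coincide and cannot be told apart.

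**Figure D2:**
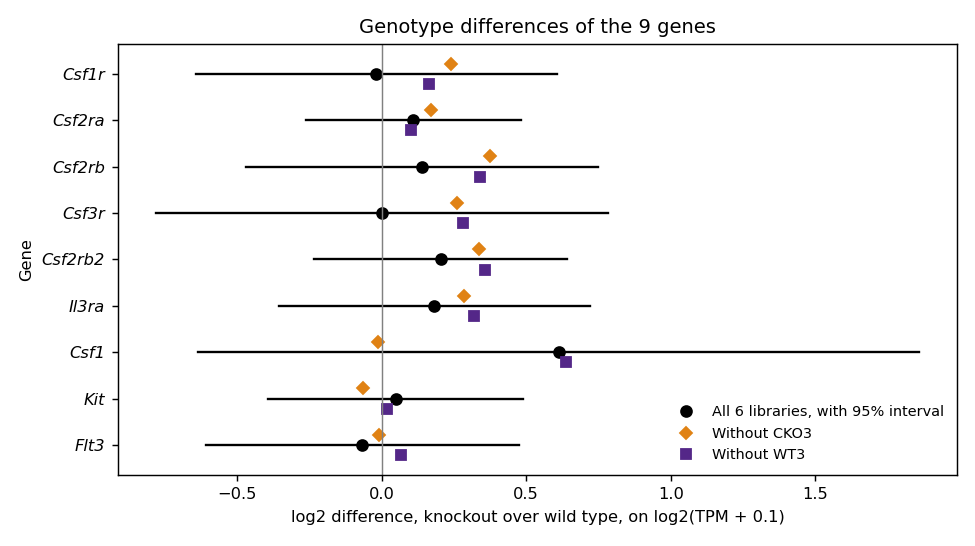
Log2 difference of each gene, knockout over wild type, on the log2(TPM + 0.1) scale, as a black point with its 95% interval; diamonds leave out CKO3 and squares leave out WT3. Every interval from all 6 libraries crosses 0, and the difference of Csf1 is -0.012 without CKO3.

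Csf1r, the M-CSF receptor, was close to equal between the groups on average and varied within both. It had 1448, 1355 and 815 TPM in CKO cultures, against 1047, 1042 and 1525 TPM in WT cultures. The highest library was WT3 and the lowest CKO3, so each group held an extreme of the range. The log2 difference was -0.019 ± 0.26 (SE), with a 95% interval of -0.64 to 0.61. In a fit that also held each library's side of the first principal component, the difference was -0.24 ± 0.08. Its unadjusted p was 0.0251 and its adjusted p 0.621 (limma). In that fit 7.59% of tested genes had an unadjusted p under 0.05. Within the negative side (CKO1 and CKO2 against WT3) the difference of log2 means was -0.12, and within the positive side (CKO3 against WT1 and WT2) it was -0.36. In bulk samples fewer cells of a type and less RNA per cell cannot be told apart.

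Csf1 itself, the gene of the factor added to the medium, was set apart in a single library. It had 4.72, 4.94 and 17.9 TPM in CKO cultures, against 6.12, 3.74 and 5.05 TPM in WT cultures. CKO3 was 2.93 times as high as the next library, and the other 5 libraries lay between 3.74 and 6.12 TPM, with CKO1 and CKO2 inside the range of the WT cultures. The reads behind these values numbered 618, 599 and 1925 in CKO cultures, against 573, 514 and 639 in WT cultures. The log2 difference was 0.61 ± 0.52 (limma adjusted p = 1.0), and without CKO3 it was -0.012. Between CKO1 and CKO2 and their side-mate WT3 the difference was -0.062, and between CKO3 and its side-mates WT1 and WT2 it was 1.88. In the authors' deposited table it is 0.89, with a p-value of 0.0290 and an adjusted p of 1.0. CKO3 lay at least 2-fold above every other library for 40 of 11651 tested genes with a mean of 1 TPM or more (0.343%), among which Csf1 ranked 6th, a count made after its values were seen.

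Stromal cells are a known source of M-CSF, and their markers were also measured. The 16 genes of the stromal and endothelial list summed to 22.2, 21.0 and 29.5 TPM in CKO cultures, against 34.3, 33.5 and 24.4 TPM in WT cultures; Kitl and the endothelial gene Pecam1 were its most abundant. Without Kitl, which carried most of it, the sum was 8.60, 8.55 and 8.38 TPM in CKO cultures, against 9.69, 10.4 and 12.5 TPM in WT cultures, with CKO3 lowest. All 10 tested genes of the list differed negatively (median log2 difference -0.24), as did 6716 of all 13722 tested genes. Of the 10, 1, the matrix gene Sparc, had an unadjusted p under 0.05 (0.0250, limma adjusted p = 1.0), beside 2.18% of all tested genes. Of its defining genes, the collagen genes Col1a1, Col1a2 and Col3a1 had 27, 9 and 2 reads in CKO3 and the proteoglycan gene Dcn 2, against 18 to 39, 12 to 60, 4 to 7 and 2 to 5 reads in WT cultures. Genes of T and NK cells summed to 7.39, 11.0 and 11.6 TPM in CKO cultures, against 5.23, 3.52 and 4.61 TPM in WT cultures, led by Nkg7 and Lck. All 9 tested genes of that list had an unadjusted p under 0.05 and a positive difference, beside 2.18% of all tested genes. Of these, Cd3e, Gzmb and Il2rb reached 0.1 TPM in CKO cultures alone, so the filter favoured their direction and the count is in part set by it. Cd3e, for example, had 14, 17 and 10 reads in CKO cultures, against 2, 3 and 0 in WT cultures. The part of T and NK cells in the level of Csf1 was not tested.

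The genes of the GM-CSF and interleukin 3 receptors had small positive differences that did not pass. Csf2ra, the GM-CSF alpha chain, had 128, 91.0 and 95.1 TPM in CKO cultures, against 108, 86.0 and 94.99 TPM in WT cultures. Its spread was the narrowest of these 4 genes, with a highest library 1.49 times the lowest, and the log2 difference was 0.11 ± 0.16. Il3ra, the interleukin 3 alpha chain, had 33.1, 20.0 and 20.9 TPM in CKO cultures, against 20.2, 18.3 and 25.6 TPM in WT cultures. CKO1 was the highest library for both alpha chains; without it the differences were -0.045 for Csf2ra and -0.048 for Il3ra, in place of 0.11 and 0.18.

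The beta chains were high in the same libraries. Csf2rb had 78.9, 74.4 and 46.9 TPM in CKO cultures, against 54.9, 48.1 and 78.1 TPM in WT cultures. Csf2rb2 had 35.9, 33.3 and 26.2 TPM in CKO cultures, against 26.6, 22.7 and 33.9 TPM in WT cultures. CKO1, CKO2 and WT3 were the 3 highest libraries for both, the libraries on the negative side of the first component. The log2 differences were 0.14 ± 0.25 and 0.20 ± 0.18. CKO1 was the highest library for both, as for the alpha chains, and without it they were -0.00015 and 0.11. Csf2rb2 was the only 1 of the 9 genes whose difference kept its sign in every alternative run, from 0.061 to 0.49.

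Csf3r, the G-CSF receptor, had the widest spread of the receptors. It had 55.2, 56.6 and 32.6 TPM in CKO cultures, against 45.9, 32.1 and 69.0 TPM in WT cultures, a highest library 2.15 times the lowest, beside a median of 1.33 over tested genes with a mean of 1 TPM or more. The log2 difference was 0.0013 ± 0.33, with a 95% interval of -0.78 to 0.78. Any difference inside that interval is compatible with these libraries, so a change of that size is not excluded. Neutrophil genes were abundant in the cultures: S100a9 and S100a8, which encode calprotectin, had 3507 to 4006 and 2055 to 2432 TPM in CKO cultures, against 2877 to 4151 and 1727 to 2546 TPM in WT cultures. The 13 neutrophil genes summed to 8383, 8140 and 7233 TPM in CKO cultures, against 7546, 6033 and 8802 TPM in WT cultures. That sum and Csf3r were both highest in WT3 and lowest in WT2, and the part of neutrophils in the level of Csf3r was not tested.

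The receptors of early progenitors were the least abundant of the 9 genes. Kit had 3.04, 2.75 and 3.68 TPM in CKO cultures, against 3.65, 2.62 and 2.91 TPM in WT cultures, with 391 to 466 reads in CKO cultures, against 400 to 431 reads in WT cultures. Its highest library was 1.41 times its lowest, the narrowest spread of the 9 genes, and the log2 difference was 0.048 ± 0.18. Flt3 had 1.53, 1.52 and 1.34 TPM in CKO cultures, against 1.76, 1.10 and 1.86 TPM in WT cultures, a log2 difference of -0.067 ± 0.23. Both differences changed sign when single libraries were left out, between -0.064 and 0.18 for Kit and between -0.29 and 0.065 for Flt3.

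Markers of cells that keep these receptors were also measured. Mast cell, basophil and eosinophil genes summed to 69.0 to 75.5 TPM in CKO cultures, against 58.2 to 86.4 TPM in WT cultures over 14 genes, most of it from the eosinophil granule gene Prg2 at 44.7 to 48.8 TPM in CKO cultures and 41.4 to 60.2 TPM in WT cultures; the histamine enzyme gene Hdc came next. The mast cell protease gene Cpa3 had 3.32 ± 0.70 TPM in CKO cultures and 2.55 ± 0.65 TPM in WT cultures (SD, n = 3 each). The IgE receptor gene Ms4a2 had 0.751 ± 0.141 TPM in CKO cultures and 0.696 ± 0.125 TPM in WT cultures. Fcer1a, Mcpt8 and Epx, the other defining genes of the list, averaged 0.361, 3.48 and 0.987 TPM in CKO cultures. In WT cultures they averaged 0.394, 3.56 and 0.857 TPM. Of the 10 tested genes of the list 6 differed positively and 4 negatively. Cpa3 is also on the progenitor list, and the mast cell protease genes Mcpt4, Cma1, Tpsb2 and Tpsab1 had 0 or 1 read in every library. Dendritic cell genes other than Flt3 summed to 192, 166 and 88.9 TPM in CKO cultures, against 109, 89.5 and 204 TPM in WT cultures. Clec10a, a lectin gene, and the factor gene Tcf4 led them. Among the defining genes, Zbtb46 and Xcr1 averaged 0.267 and 0.077 TPM in CKO cultures, against 0.286 and 0.096 TPM in WT cultures. The other defining genes, Siglech and Cd209a, averaged 3.41 and 5.97 TPM in CKO cultures, against 3.39 and 6.54 TPM in WT cultures. Of the defining genes of all marker lists, Adgre1 (macrophages) and Ly6g (neutrophils) were not found by symbol in the deposited table. Every gene there had a value above 0 in some library, so a gene at 0 throughout could not appear. The part of mast cells, basophils, eosinophils and dendritic cells in the levels of Kit and Flt3 was not tested.

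Across libraries Csf1r, both beta chains and Csf3r varied together, and Csf1 did not follow them. CKO1, CKO2 and WT3 were the 3 highest libraries for these 4 of the 9 genes. They are the libraries on the negative side of the first component, which held 44.3% of the variance of the other tested genes. The share of all tested genes with the same 3 highest libraries was not counted, so the pattern is not shown to be particular to these receptors. As a description over 6 libraries that share depth and the division described above, Pearson's r of log2(TPM + 0.1) with Csf1r was 0.95 for Csf2rb, 0.82 for Csf2rb2 and 0.91 for Csf3r, and -0.57 for Kit and -0.70 for Csf1. CKO3 was the highest library for Csf1 and the lowest for Csf1r. Csf2ra stood closer to Il3ra (0.80) than to its signalling partner Csf2rb (0.41).

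**Figure D3:**
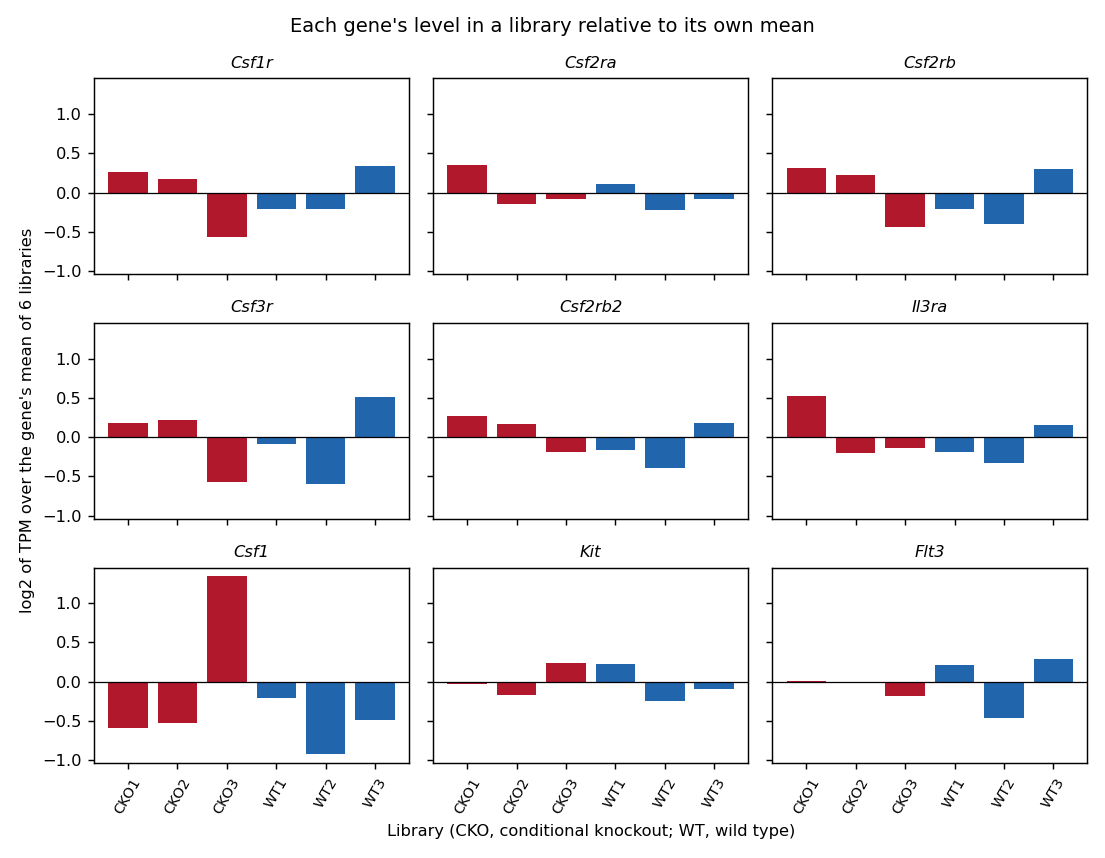
Log2 of each gene's TPM in a library over the gene's own mean of 6 libraries, with knockout libraries in red left of wild-type libraries in blue. Csf1r, Csf2rb, Csf3r and Csf2rb2 are above their mean in CKO1, CKO2 and WT3, whereas Csf1 is above its mean in CKO3 alone.

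Ratios within a library remove a scale that all its genes share. Csf2rb2 stood at 0.455, 0.448 and 0.559 of the level of Csf2rb in CKO cultures and at 0.485, 0.472 and 0.433 in wild type, the narrowest range of the 4 ratios computed, although each beta chain varied by more than 1.5-fold between libraries. Csf2ra exceeded Csf2rb in every library, by 1.62, 1.22 and 2.03 times in CKO cultures and by 1.97, 1.79 and 1.22 times in WT cultures. Csf3r held 0.0381, 0.0418 and 0.0399 of the level of Csf1r in CKO cultures and 0.0438, 0.0308 and 0.0452 in wild type. Csf1 held 0.00326, 0.00365 and 0.0220 of it in CKO cultures and 0.00585, 0.00359 and 0.00331 in wild type, so CKO3 stood apart. The mean log2 ratios differed between the groups by 0.066, -0.029, 0.020 and 0.64 in that order (exact permutation tests, two-sided, p = 0.8, 1.0, 1.0 and 0.7, where 0.1 is the smallest p that 3 against 3 allows).

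**Figure D4:**
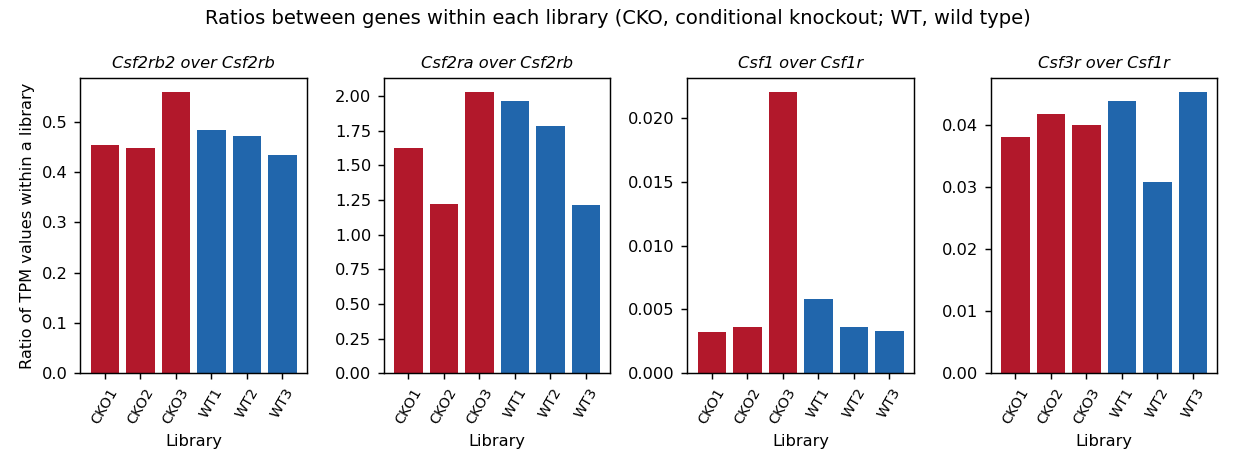
Ratio of TPM values of gene pairs within each library (axes start at 0), with knockout libraries in red left of wild-type libraries in blue. Csf2rb2 over Csf2rb stays between 0.433 and 0.559, while Csf1 over Csf1r reaches 0.0220 in CKO3 against at most 0.00585 elsewhere.

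Of the other ligands, those of the progenitor receptors were expressed, and those of the colony-stimulating factor receptors had 0 to 3 reads per library. Kitl, which encodes stem cell factor, had 13.6, 12.4 and 21.2 TPM in CKO cultures, against 24.6, 23.1 and 11.8 TPM in WT cultures, a log2 difference of -0.30 ± 0.33. Its highest 3 libraries were CKO3, WT1 and WT2, the libraries in which Csf1r was lowest. Flt3l had 12.9, 11.8 and 12.9 TPM in CKO cultures, against 10.1, 9.54 and 12.8 TPM in WT cultures, a difference of 0.22 ± 0.14. Il34, the other ligand of the M-CSF receptor, had 1 read in CKO1 and 0 in the other 5 libraries, and Csf2, which encodes GM-CSF, had 0 reads in all 3 CKO cultures, against 1, 1 and 0 in WT cultures. Since a count of 0 allows up to 3 reads, for counting error only, both lay under that limit in every library. Csf3 had 0 to 3 reads and Il5 0 or 1. Tslp, whose receptor pairs Crlf2 with Il7r, had a log2 difference of 0.11 ± 0.36. Il3, Thpo and Epo were not found by symbol in the deposited table and so have no values here. Of the 3 ligand genes that could be tested 0 passed.

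Of 11 tested receptors related in structure or ligand, 5 were positive and 6 negative, with a median of -0.026. Crlf2, a cytokine receptor chain, had 30.8, 14.2 and 14.5 TPM in CKO cultures, against 12.9, 12.5 and 15.6 TPM in WT cultures (0.44 ± 0.31). CKO1 was its highest library, as it was for Csf2ra, Il3ra and both beta chains. Ghr, the growth hormone receptor, was lower without overlap, at 0.027 to 0.089 TPM in CKO cultures, against 0.116 to 0.136 TPM in WT cultures (-0.51 ± 0.24). Ghr reached 0.1 TPM in WT cultures alone, so the filter favoured this direction. It had only 9, 11 and 3 reads in CKO cultures, against 13, 18 and 15 in WT cultures. The most abundant, Il7r and Il6st, differed by 0.18 ± 0.32 and -0.026 ± 0.065.

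Genes that work next to the receptors did not pass either: 0 of 125 tested genes over 7 lists were called (0% of all tested genes), by limma or by limma-voom, and 4 had an unadjusted p under 0.05, beside 2.18% of all tested genes. The authors' deposited table calls 1 of 132, Ly6a, the gene of the stem cell antigen Sca-1. Of 34 adaptor and kinase genes 17 were positive and 17 negative, with differences from -0.34 to 0.16 and a median of 0.00071. JAK2, the kinase bound to the beta chains, is encoded by Jak2, which had 38.9, 37.9 and 38.2 TPM in CKO cultures, against 31.8, 33.2 and 37.9 TPM in WT cultures (log2 difference 0.16 ± 0.091). Stat3 had 75.4, 73.8 and 74.1 TPM in CKO cultures, against 68.1, 59.6 and 73.6 TPM in WT cultures, with groups that did not overlap. Src had a difference of -0.34 ± 0.20, and the adaptor gene Tyrobp and the kinase gene Akt1, the most abundant of the list, had differences of -0.0048 ± 0.18 and -0.036 ± 0.080.

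Among 27 negative regulators 14 were positive and 13 negative, with a median of 0.017. Socs1, an inhibitor of JAK kinases, had 1.06, 1.01 and 2.06 TPM in CKO cultures, against 0.670, 0.600 and 0.887 TPM in WT cultures, without overlap (log2 difference 0.79 ± 0.31, unadjusted p = 0.0371, adjusted p = 1.0, limma). Socs3 had a difference of 0.65 ± 0.39 with overlapping groups, and the phosphatase gene Ptprc, the pan-leukocyte marker CD45, one of 0.14 ± 0.079; Ptpn6, the phosphatase SHP-1, and the ubiquitin ligase gene Rnf128 were the most abundant, at -0.017 ± 0.12 and 0.064 ± 0.077. Of 22 transcription factors 13 were positive and 9 negative, with a median of 0.029. Cebpb, a C/EBP factor of myeloid cells, had 46.0, 30.7 and 39.3 TPM in CKO cultures, against 17.9, 25.7 and 32.4 TPM in WT cultures (0.63 ± 0.24), and Myb, a factor of progenitors, had 11.9, 12.3 and 11.6 TPM in CKO cultures, against 14.1, 14.2 and 15.1 TPM in WT cultures (-0.27 ± 0.091, unadjusted p = 0.0205, adjusted p = 1.0, limma). Gata1, a factor of the erythroid lineage, differed by -0.34 ± 0.26 and Maf, a macrophage factor, by 0.048 ± 0.13.

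Of 14 tested genes linked to STAT5, 8 were positive and 6 negative, with a median of 0.11. The interleukin 2 receptor gene Il2ra had 0.687, 0.708 and 0.642 TPM in CKO cultures, against 0.970, 1.14 and 0.844 TPM in WT cultures (-0.47 ± 0.18), and the kinase gene Pim1 a difference of 0.32 ± 0.15. The survival genes Mcl1 and Bcl2l1 were the most abundant, with differences of 0.24 ± 0.18 and -0.0056 ± 0.39. Of 19 tested progenitor genes 11 were positive and 8 negative, with a median of 0.045. The stem cell marker Cd34 had 3.00, 2.74 and 2.97 TPM in CKO cultures, against 4.54, 6.54 and 3.09 TPM in WT cultures, without overlap (-0.62 ± 0.27, unadjusted p = 0.0541, adjusted p = 1.0, limma). Hoxa9 lay higher without overlap at 0.418, 0.429 and 0.651 TPM in CKO cultures, against 0.395, 0.299 and 0.249 TPM in WT cultures. The granule gene Mpo, at 89.7 ± 9.9 TPM in CKO cultures and 93.6 ± 18.9 TPM in WT cultures (SD, n = 3 each), differed by -0.048 ± 0.16, and Cd93, its most abundant member, by 0.010 ± 0.11.

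**Figure D5:**
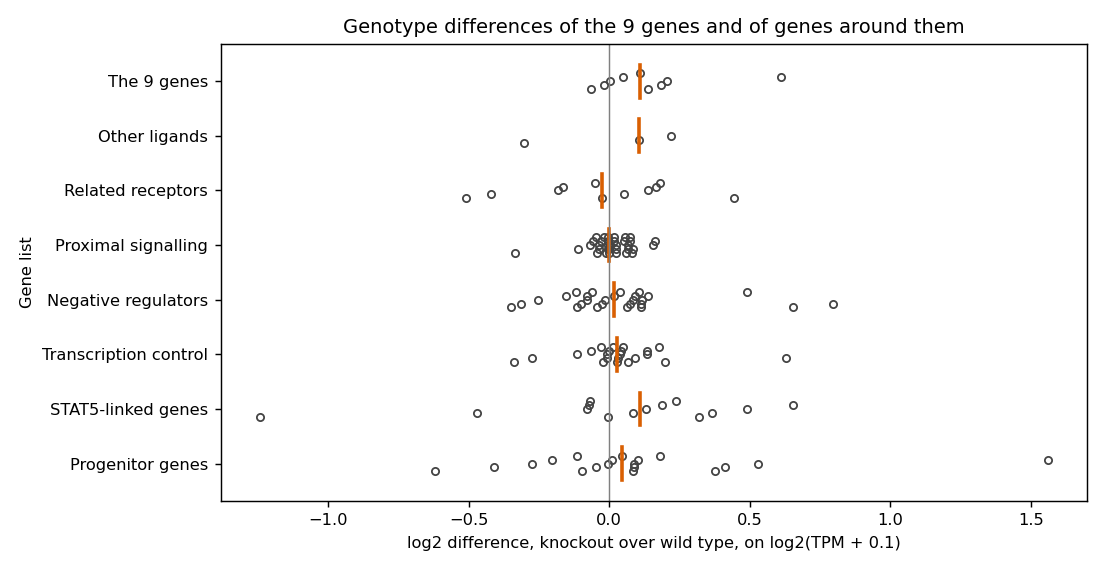
Log2 difference of each tested gene, knockout over wild type, on the log2(TPM + 0.1) scale, for the 9 genes and for the lists of genes around them; orange bars mark medians. Medians lie between -0.026 (related receptors) and 0.11 (the 9 genes), and the point at 1.56 is the progenitor list's Ly6a.

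Genes whose pattern over the 6 libraries was most like each of the 9 were named by Pearson's r on the log2 scale among 9865 tested genes with a mean of 5 TPM or more. For Csf1r they were Madd and Arhgap31, both with r over 0.99, at 47.3, 46.0 and 35.1 TPM (Madd) in CKO cultures and 40.5, 40.0 and 48.7 TPM in wild type. For Csf2rb they were Mical1 and Gpr146, for Csf2rb2 Ptms and Btd, and for Csf3r Lst1 and Mpv17. Csf2ra was nearest to Aes and Rexo1, Il3ra to Tnrc18 and Snx21, Flt3 to Gmppa and Hp, and Kit to Anxa11 and 9930021J03Rik. For Csf1 they were Sqstm1 (r = 0.99), which encodes the autophagy receptor p62, and Crem. Sqstm1 had 1001, 957 and 1639 TPM in CKO cultures, against 1022, 851 and 1015 TPM in WT cultures. It too was highest in CKO3, which its choice by likeness to Csf1 already favours. The nearest of 9865 genes over 6 libraries has a high r through that choice, so these values are description only.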

How the data were processed

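The authors deposited gene-level TPM, identified here by equal library sums of values that are not whole. Per the file headers they also gave log2 values (fold change, positive where CKO is higher, and mean abundance), a score (the likelihood ratio statistic) and p-values, raw and adjusted. Tools named in the submitters' processing notes, without roles, are edgeR, featureCounts, Subread, TopHat2 (2.0.12), Picard (1.127) and FastQC (0.11.2), with build mm10; neither annotation nor strand setting is stated. Whole reads were recovered from ratios of the TPM values (100% of 94034 values above 0 within 0.01 of a read). Genotype was tested with limma 3.58.1 (R 4.3.3), with a mean-variance trend, two-sided and Benjamini-Hochberg adjusted, on log2(TPM + 0.1). The test took the 13722 genes that reached 0.1 TPM in 3 or more libraries. The fit was also run on simulated data with the same dispersion for every gene and without the division of libraries seen here. That run does not show what the fit can detect in these data. The log2(TPM + 0.1) scale understates changes of low genes. Unless marked SD, ± is the SE of a log2 difference. Alternatives were other pseudocounts, filters and scalings, limma-voom, terms for the replicate number and for the first principal component, and single libraries left out. The genes, the lists and the settings were chosen with earlier results of these data known. Named were all 9 genes and, in each list, the 3 genes of lowest p and the 2 highest in TPM. The 2 most abundant markers per cell type and the 2 most alike genes were also named. Ly6a, Id1, Il34, Csf2, Csf3, Il5, Sparc, the mast cell proteases and the genes highest in CKO3 were added after their values were seen. So were Cd3e, Gzmb, Il2rb, Fcer1a, Mcpt8, Epx, Hba-a1 and Hba-a2. One gene that this rule names is not reported here.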

Additional observations from a re-analysis of the deposited data

How the results depend on the processing

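Counts of called genes were 0 among all tested genes, the 9 genes and the 125 genes around them in every planned limma alternative, single libraries left out included; the exceptions were the authors' deposited table, with 46, 0 and 1 calls, and the removal of CKO3 and WT3 together, an alternative chosen after seeing the data, with 1400, 3 and 19. In that alternative the log2 differences of Csf1r, Flt3 and Kit were 0.42, 0.12 and -0.093, and the differences of the log2 ratios of Csf2rb2 and of Csf2ra to Csf2rb were -0.084 and -0.41. Adjusted for each library's side of the first principal component, Csf2rb and Csf3r were -0.080 and -0.27, with quantile normalization Csf3r was -0.016, and the values in the authors' deposited table were 0.000472 for Csf1r and -0.027 for Csf3r; the cause was not tested. With single libraries left out the ranges were -0.17 to 0.24 for Csf1r, -0.045 to 0.20 for Csf2ra, -0.0097 to 0.37 for Csf2rb, 0.070 to 0.36 for Csf2rb2, -0.27 to 0.28 for Csf3r, -0.048 to 0.32 for Il3ra, -0.29 to 0.065 for Flt3, -0.064 to 0.18 for Kit and -0.012 to 0.94 for Csf1. Same-numbered libraries did not vary together (correlations of deviations of -0.24, -0.15 and -0.53). With 3 libraries a group, and CKO3 and WT3 at opposite ends of the first component, this cannot show whether they were processed together. With the replicate block limma made 0 calls among all genes (232 at unadjusted p under 0.05). Other pseudocounts and filters changed no sign among the 9 genes. With 3 libraries a group and the spread seen here, the farther bound of the receptors' 95% intervals lay 0.48 (Csf2ra) to 0.78 (Csf3r) from 0 on the log2 scale. Differences within these intervals are compatible with the data, so changes of that size are not excluded.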

Other observations

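Ly6a, which encodes the stem cell antigen Sca-1 and is also known to respond to interferon, was the gene of the progenitor list with the highest log2 difference. It had 9.84, 16.8 and 78.2 TPM in CKO cultures, against 10.0, 5.90 and 8.33 TPM in WT cultures, a difference of 1.56 ± 0.72 that did not pass (limma adjusted p = 1.0). In the authors' deposited table its adjusted p is 0.0449. By the ratio of CKO3 to the next highest library, 4.65, it stood first of the tested genes with a mean of 1 TPM or more. The chemokine gene Ccl12 (4.29), the stress response gene Trib3 (3.97) and the podoplanin gene Pdpn (3.72) followed, named after their values were seen.

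Id1, a transcriptional regulator listed among STAT5-linked genes, had 4.92, 2.69 and 3.62 TPM in CKO cultures, against 7.48, 30.5 and 2.88 TPM in WT cultures, so WT2 stood above the other 5 libraries. Its log2 difference of -1.24 ± 0.79 did not pass.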
